A study of Homo sapiens with 2 samples.

Results

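Most catenins are proteins of the complex that joins cadherins, the adhesion receptors of cell-cell junctions, to the cytoskeleton. The 8 catenin genes, CTNNA1, CTNNA2, CTNNA3, CTNNAL1, CTNNB1, CTNND1, CTNND2 and JUP, were looked up by gene name in a genome-wide list of binding sites of methylated ERG (mERG). Of the 18070 peaks in that list, 78 were named for a catenin gene, and 5 of the 8 genes were named at least once. Chromatin came from VCaP, a prostate cancer cell line with the TMPRSS2-ERG fusion, which places the ETS transcription factor ERG under an androgen-driven promoter. The group analysed is 1 ChIP library made with the anti-mERG antibody, a custom rabbit polyclonal raised to an ERG peptide with a methylated lysine, and the authors called its peaks against 1 control library of the same cells. The control is titled as input while its antibody label is IgG, and which of these it was could not be settled. Without a replicate, differences between genes or between peaks have no replicate error to be judged by, and the read depth is unknown from the list. Intervals given below are 95% intervals that cover counting error only.

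Cadherins hold neighbouring epithelial cells together, and their cytoplasmic tails bind β-catenin or plakoglobin, which bind α-catenin, which in turn binds actin. The p120 catenins bind the tail near the membrane and keep the cadherin at the cell surface. β-catenin is also the transcriptional coactivator of Wnt signalling, and the junctional complex is often altered in carcinomas of the prostate. CTNNA1 (αE-catenin), CTNNB1 (β-catenin), CTNND1 (p120) and JUP (plakoglobin) were taken as epithelial catenins, CTNNA2 (αN-catenin) and CTNND2 (δ-catenin) as neural catenins, and CTNNA3 (αT-catenin, known from heart and testis) and CTNNAL1 (α-catulin, an α-catenin relative) as neither.

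The peaks the account turns on are shown here by their central 201 bp, read from the GRCh37 (hg19) reference: the highest-scoring peak of CTNNA1, CTNNAL1, CTNNB1 and CTNND1, and the highest-scoring peak inside CTNNA1, CTNNA2 and CTNNAL1 that the list names for another gene. Every window lies in an intron. Capitals mark GGAA, the core bound by ETS factors, or TTCC, the same core on the minus strand.
CTNNA1, chr5:138127978-138128178, plus strand: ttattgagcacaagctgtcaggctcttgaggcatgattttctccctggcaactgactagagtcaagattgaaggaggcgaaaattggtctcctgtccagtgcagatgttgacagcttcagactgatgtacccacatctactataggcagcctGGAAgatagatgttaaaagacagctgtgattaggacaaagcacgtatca
CTNNAL1, chr9:111788551-111788751, plus strand: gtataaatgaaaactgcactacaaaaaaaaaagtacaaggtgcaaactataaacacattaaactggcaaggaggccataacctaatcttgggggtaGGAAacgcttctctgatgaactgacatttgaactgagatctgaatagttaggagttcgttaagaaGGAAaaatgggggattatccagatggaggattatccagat
CTNNB1, chr3:41255464-41255664, plus strand: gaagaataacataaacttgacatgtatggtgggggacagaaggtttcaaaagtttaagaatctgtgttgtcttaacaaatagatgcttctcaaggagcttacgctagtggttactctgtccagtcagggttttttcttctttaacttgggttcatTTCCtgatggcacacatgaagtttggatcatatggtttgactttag
CTNND1, chr11:57540420-57540620, plus strand: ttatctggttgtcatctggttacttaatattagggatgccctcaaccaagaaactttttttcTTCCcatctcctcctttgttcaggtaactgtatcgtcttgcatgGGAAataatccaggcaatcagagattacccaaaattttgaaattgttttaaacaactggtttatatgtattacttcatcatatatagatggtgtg
CTNNA1 body peak named for LRRTM2, chr5:138236582-138236782, plus strand: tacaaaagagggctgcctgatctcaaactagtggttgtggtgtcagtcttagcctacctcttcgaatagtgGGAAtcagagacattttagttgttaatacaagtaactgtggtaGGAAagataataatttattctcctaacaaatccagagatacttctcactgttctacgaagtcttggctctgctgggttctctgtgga
CTNNA2 body peak named for MIR8080, chr2:80000020-80000220, plus strand: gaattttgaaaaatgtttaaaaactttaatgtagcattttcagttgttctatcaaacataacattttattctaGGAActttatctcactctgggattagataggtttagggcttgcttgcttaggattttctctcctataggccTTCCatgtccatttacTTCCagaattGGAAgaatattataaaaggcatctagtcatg
CTNNAL1 body peak named for FAM206A, chr9:111730311-111730511, plus strand: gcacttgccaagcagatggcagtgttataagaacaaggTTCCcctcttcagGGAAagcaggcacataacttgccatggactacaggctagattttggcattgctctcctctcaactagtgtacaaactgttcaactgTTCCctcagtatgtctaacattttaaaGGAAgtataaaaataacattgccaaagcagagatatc

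The CTNNA1 window held 1 GGAA and the CTNNB1 window 1 TTCC, whereas over their whole width these peaks held 12 and 8 cores. Over all peaks, 18037 windows held 35581 cores. The CTNNAL1 window held 2 cores, and the CTNND1 window 1 on each strand. The windows named for LRRTM2, MIR8080 and FAM206A held 2, 4 and 4 cores.

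CTNNA1 had the most peaks by name (28), followed by CTNNAL1 (22), CTNNB1 (17), CTNND1 (6) and CTNND2 (5). No peak was detected by name for CTNNA2, CTNNA3 or JUP. A peak is named for the gene whose transcription start site (TSS) is nearest to its centre, so a peak inside a long gene may carry a neighbour's name. Counted instead by peak centres inside the gene body, in the gene annotation of the same build, 7 of the 8 genes held a peak: 42 in CTNNA1, 25 in CTNNAL1, 17 in CTNNB1, 8 in CTNND2, 6 in CTNND1, and 1 each in CTNNA2 and CTNNA3. JUP held 0 by either count.

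**Figure D1:**
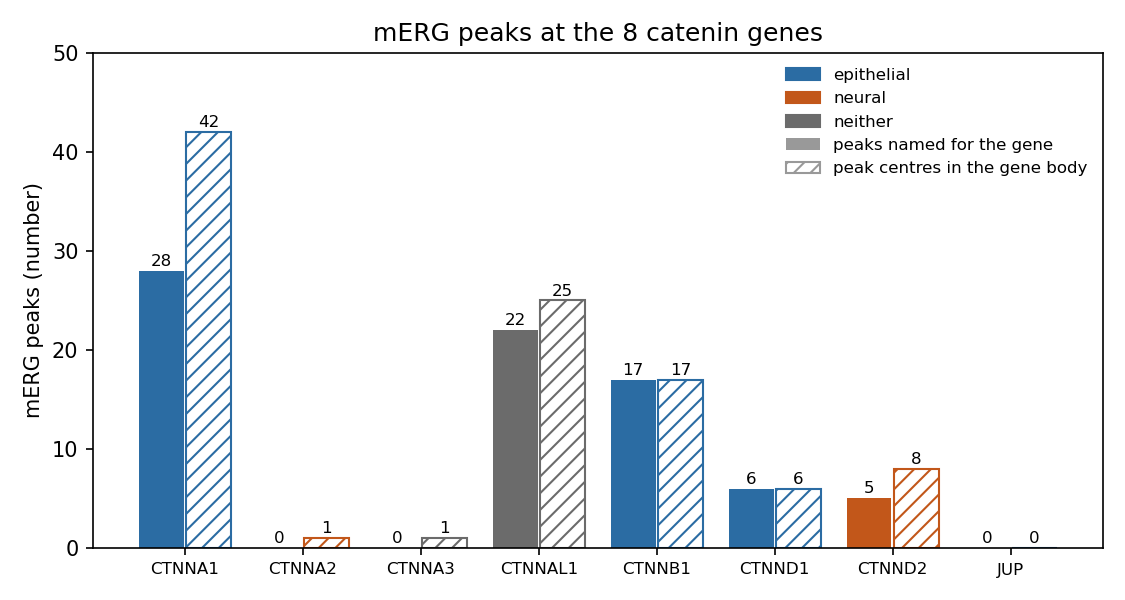
Number of mERG peaks (y axis) for each of the 8 catenin genes (x axis), as filled bars for peaks named for the gene and hatched bars for peak centres in the gene body; colours give the epithelial, neural and remaining genes. CTNNA1 had the tallest bars by both counts (28 and 42), and JUP had 0 by both.

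These counts have to be read against the rest of the genome. Among 19101 protein-coding genes, 21.3% were named by at least 1 peak and 19.7% held a peak centre in the gene body. The share rose with length, from 13.5% of genes under 50 kb to 35.0% of genes of 50 to 100 kb and 38.4% of genes of 100 to 500 kb, and was 30.2% among genes of 500 kb and over. The catenins span this range, from JUP (32.3 kb) to CTNNA3 (1851 kb). With 8 genes, chosen with earlier results of these data known, the 5 named genes are a description and were not tested against these shares.

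CTNNA1 encodes αE-catenin, the actin-linking subunit of the epithelial adherens junction. Its 28 named peaks lay on chromosome 5 between positions 138096059 and 138189593, a stretch of 93535 bp of which 24.2% was inside a peak. The score is the log10 of the p-value that MACS gave the peak, multiplied by −10, and it ran from 35.0 to 86.8, with 43.3 as the median. The weakest peak of the whole list had a p-value of 5e-04, and the threshold and version of MACS are not given in the sources used here. Low-scoring peaks thus lie close to this floor, and no peak detected means no peak in a list with that floor. The strongest peaks were chr5:138127306-138128850 (score 86.8), 38993 bp downstream of the TSS, and chr5:138096059-138097020 (score 86.6), which at 7454 bp was also the closest to a TSS. Among all peaks of the list, 96.6% scored lower than the stronger of them. By the deposited annotation 27 peaks were intronic and 1 was exonic. The annotation numbers introns by RefSeq transcript, and in a transcript with 16 introns it placed 6 peaks in intron 1, 1 in intron 2, 3 in intron 4 and 7 in intron 6. A further 10 were placed in intron 3 of a transcript with 18 introns. The signed distances changed sign along the gene: 19 peaks were downstream of the main promoter, and 9 were assigned to an internal promoter, 264 kb from the gene's annotated start, with distances from -59843 to -22116 bp.

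A further 14 peak centres lay inside CTNNA1 but were named for LRRTM2, a gene of a synaptic adhesion protein that sits on the opposite strand within CTNNA1. These had scores from 36.1 to 109.8, and the strongest of them, chr5:138235672-138237693, scored higher than any peak named for CTNNA1 and was 2022 bp wide. LRRTM2 itself, 6.45 kb long, held 0 peak centres, although 15 peaks carried its name. On the single numbering of the canonical CTNNA1 transcript, which has 17 introns, the 42 centres fell in 10 introns and 1 exon. Intron 3 (26.7 kb) held 10, intron 7 (58.5 kb), which contains LRRTM2, held 9, intron 1 (28.4 kb) held 6 and intron 11 (6.61 kb) held 4. The canonical transcript starts 142 kb inside the annotated gene span, and that upstream part held no peak centre, so the density was 13.0 peaks per 100 kb of the whole span (exact Poisson interval 9.34 to 17.5) and 23.1 per 100 kb of the canonical span. Of 3185 protein-coding genes of 100 to 500 kb, 0.848% had at least as many peaks in the body as CTNNA1.

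CTNNA2 and CTNNA3, the other α-catenin genes, were at the opposite end. CTNNA2, the neural αN-catenin that acts in axon and synapse formation, spans 1464 kb and held a single peak, chr2:80000005-80000235, in intron 3 of 18. It was named for the microRNA gene MIR8080 at 93589 bp, and its score of 34.5 was above that of 13.6% of all peaks. Beyond the gene, the nearest peak centres were 3481150 bp away on one side and 2445592 bp on the other. CTNNA3, whose αT-catenin works in cardiac junctions, spans 1851 kb and also held a single peak, chr10:68195282-68195470, in intron 11 of 17, with an L1PA7 repeat at its centre and a score of 35.4. It was named for LRRTM3, nested in CTNNA3 as LRRTM2 is in CTNNA1, at -490416 bp. LRRTM1, nested in CTNNA2, had no peak by name or in its body. Of the 318 protein-coding genes of 500 kb and over, 39.6% held at least 1 peak centre of any score.

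CTNNAL1 encodes α-catulin, which resembles α-catenin and vinculin. It had the highest scores of the family. Its 22 named peaks scored from 34.8 to 210.2 with a median of 66.3, and 16 of them scored 50 or more. The strongest, chr9:111786798-111790505 (score 210.2), was 3708 bp wide and ranked 46 among the 18070 peaks. It held 45 GGAA cores on either strand over that width, where all whole peaks together held 9.81 per kb. It was not inside CTNNAL1: it lay upstream of the TSS (-12777 bp), in an intron of the neighbouring gene TMEM245, together with 3 other peaks named for CTNNAL1. Inside the gene, the strongest named peak was chr9:111768059-111769830 in intron 1 of 18, 6930 bp downstream of the TSS, with a score of 132. The closest to the TSS, at 2274 bp, had a score of 35.1.

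Peaks at CTNNAL1 were wide and close together. The median width was 1198 bp, against 400 bp over all peaks, and 10 of the 21 gaps between neighbouring named peaks were under 100 bp, the smallest 3 bp. Together the named peaks covered 50.9% of the stretch they spanned. From position 111735823 in intron 8 to position 111747607 in intron 4 the run was almost unbroken, with scores up to 111 in intron 7. The remaining intron 4 peaks, from position 111750269 on, lay apart from this run. How many separate binding events such a run stands for cannot be told from the list. A further 7 centres in the 3′ part of the gene were named for FAM206A, and the strongest of them, chr9:111728412-111732410 in intron 10, reached a score of 205. In all, 12 of the 18 canonical introns held a centre and 2 centres lay in exons. The density of 35.2 peaks per 100 kb (interval 22.8 to 52.0) was the highest of the 8 genes over the whole gene span, but its interval overlapped that of CTNNB1 (15.2 to 41.6), and over the canonical transcript CTNNB1 had 36.6 and CTNNAL1 35.2 per 100 kb. The region around the gene was also rich in peaks, with 25 centres in the 500 kb on one side and 74 on the other. Of 2967 protein-coding genes of 50 to 100 kb, 0.270% had at least as many peaks in the body.

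CTNNB1 encodes β-catenin. Its 17 named peaks were the 17 peak centres in its body, with scores from 36.3 to 117 and a median of 50.5. Most were in intron 1: 12 of the 17, all within the 24.4 kb of that intron, which gave 49.3 peaks per 100 kb. The strongest was chr3:41255213-41255916 (score 117), 14622 bp downstream of the TSS, and 98.6% of all peaks scored lower. The next were chr3:41253654-41254147 (score 66.7), also in intron 1, and chr3:41265387-41265957 (score 66.0), annotated to intron 2 and overlapping exon 2. Introns 7 and 11 each held 1 peak, with scores of 46.6 and 43.0. The last 2 peaks lay past the end of the canonical transcript, where the list annotates them to the neighbouring gene ULK4, and were 46183 and 59070 bp from the TSS of CTNNB1. The median width was 409 bp, near the 400 bp of all peaks, and no named peak was within 5 kb of the TSS.

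The peaks of CTNNB1 stood apart from other peaks on the chromosome. In the 500 kb on either side of the gene there were 1 and 0 peak centres, and the nearest centres were 364221 and 762775 bp away. This was not particular to CTNNB1, since CTNND1 also had 1 and 0 centres in its flanks. CTNND2 had 5 and 0, and CTNNA1 had 25 and 8. Of protein-coding genes of 50 to 100 kb, 1.18% had at least as many peaks in the body. JUP encodes plakoglobin, the close relative of β-catenin that also links desmosomal cadherins to intermediate filaments. No peak was detected in its 32.3 kb or within 500 kb on either side, and the nearest peak centre was 949515 bp away. A count of 0 in a gene this short allowed up to 11.4 peaks per 100 kb, and of protein-coding genes under 50 kb 9.48% held a peak centre. Chromosome 17, which carries JUP, had 1239 peaks, and 16.3% of its protein-coding genes were named.

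CTNND1 encodes p120, which stabilises cadherins at the membrane. Its 6 peaks lay in the first part of the gene, from 4564 to 27309 bp downstream of the TSS, with scores from 35.1 to 63.0 and a median of 38.6. By annotation 5 were in intron 1 of 16, and the most distant was placed in a non-coding exon of an overlapping transcript and overlapped exon 2 of the canonical one. That peak, chr11:57556295-57556792 (score 57.3), came after chr11:57540220-57540821 (score 63.0) in strength. It held 7 GGAA cores within 100 bp of its centre, the highest number among the 78 named peaks. Intron 1 measured 26.9 kb. As at CTNNB1, most peaks of CTNND1 were in intron 1, but they were fewer and had a lower median score. The farthest CTNND1 peak was 27309 bp from the TSS, whereas CTNNB1 peaks reached 59070 bp. Of protein-coding genes of 50 to 100 kb, 8.49% had at least as many peaks in the body.

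CTNND2 encodes δ-catenin, the neural relative of p120 found at synapses. Its 5 named peaks were scattered over 543534 bp, with a median gap of 108212 bp, and scored from 33.7 to 40.8, all below the median of all peaks (40.9). They were annotated to introns 2, 5, 7 and 10 of 20, with 2 of them in intron 5, chr5:11397562-11397849 and chr5:11402109-11402581. Absolute distances to the TSS ran from 134963 to 408227 bp. The TSS used by the list lies 316 kb into the gene, and the strongest peak, in intron 2, was upstream of it at -134963 bp. A further 3 centres towards the 3′ end were named for DAP, with scores of 35.1, 35.6 and 42.8. The density of 0.858 peaks per 100 kb (interval 0.370 to 1.69) was below that of CTNND1 (9.05 per 100 kb, interval 3.32 to 19.7). Among protein-coding genes of 500 kb and over, 8.18% had 8 or more peaks in the body, a share close to that for CTNND1 in its own length band (8.49%).

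**Figure D2:**
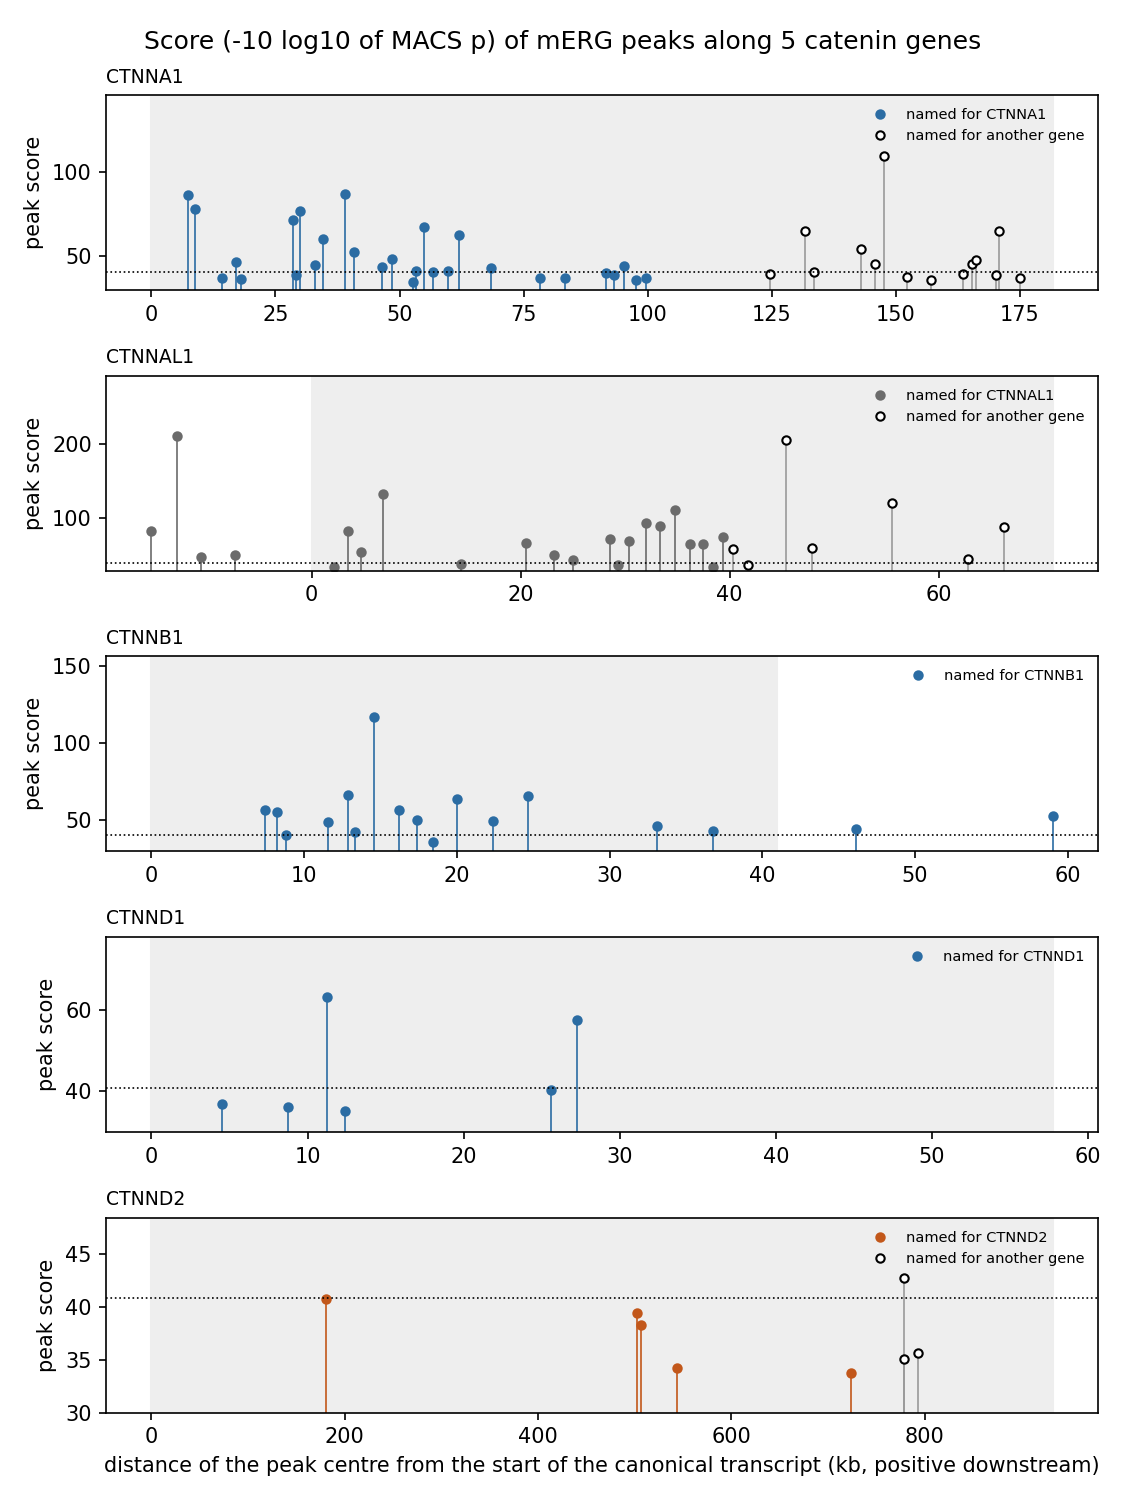
Peak score (y axis) against the distance of the peak centre from the start of the canonical transcript in kb (x axis, positive downstream), in a panel for each of 5 catenin genes; grey shading is the canonical transcript, filled points are peaks named for the gene, open points are peaks in the gene body named for another gene, and the dotted line is the median score of all peaks (40.9). CTNNB1 and CTNND1 peaks gather in the 5′ part, CTNNA1 and CTNNAL1 peaks run along the whole transcript, and the named CTNND2 peaks lie below the dotted line.

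Taken as groups, the 4 epithelial catenin genes held 65 peak centres in 488 kb, or 13.3 per 100 kb (exact Poisson interval 10.3 to 17.0), and the 2 neural genes held 9 in 2396 kb, or 0.376 per 100 kb (interval 0.172 to 0.713). By name the counts were 51 and 5 peaks. Named epithelial peaks scored up to 117 around a median of 45.0, and 20 of them scored 50 or more. Named neural peaks scored up to 40.8 around a median of 38.4, and 0 scored 50 or more. The groups differ in length as well as in the tissue their genes are known from, and the list holds no expression. The genes also lie on different chromosomes, apart from CTNNA1 and CTNND2 on chromosome 5. Effects of length, tissue and chromosome on the density cannot be told apart with 6 genes. Protein-coding genes of 500 kb and over, the length of both neural genes, had 0.252 centres per 100 kb, inside the neural interval. CTNND2 (0.858, interval 0.370 to 1.69) lay above that value and CTNNA2 (0.0683) below it. Genes of 100 to 500 kb had 1.54, genes of 50 to 100 kb had 2.13 and genes under 50 kb, the length of JUP, had 1.15. The pooled epithelial value of 13.3 was above each of these, although JUP held 0 peaks.

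Within the groups the genes varied. Among the epithelial genes CTNNA1, CTNNB1 and CTNND1 had 13.0, 26.0 and 9.05 peaks per 100 kb and JUP had 0, but the intervals of CTNNA1, CTNNB1 and CTNND1 overlapped in every pair, and the upper limit of JUP (11.4) lay within the intervals of CTNNA1 and CTNND1. The neural genes had 0.858 (CTNND2) and 0.0683 (CTNNA2, interval 0.00173 to 0.381). Of the genes in neither group, CTNNAL1 had 35.2, in the range of CTNNB1, and CTNNA3 had the lowest density above 0 (0.0540, interval 0.00137 to 0.301). Since peaks of a run are not independent of each other, these intervals are narrower than the true uncertainty.

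**Figure D3:**
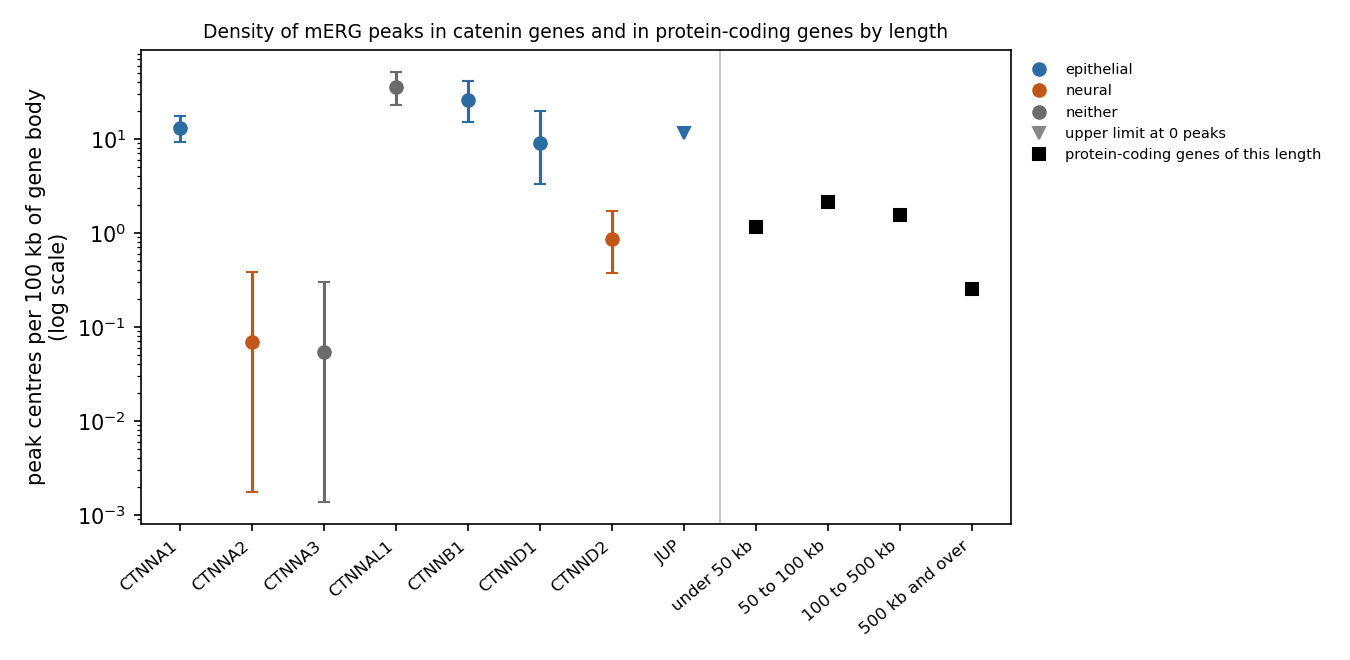
Peak centres per 100 kb of gene body on a log axis (y axis) for the 8 catenin genes and for protein-coding genes in 4 bands of length (x axis); points are densities, bars are exact 95% Poisson intervals, the triangle is the upper limit for JUP at 0 peaks, and squares are the pooled density of each band. CTNNA1, CTNNAL1, CTNNB1, CTNND1 and CTNND2 lie above the square of their length band (1.54, 2.13 or 0.252), and CTNNA2 and CTNNA3 lie below theirs (0.252), with intervals that include it.

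Scores of the 78 named peaks had a median of 48.2, against 40.9 over all peaks, and 36 of them (46.2%, Wilson interval 35.5 to 57.1%) scored 50 or more, against 25.0% of all peaks. CTNNAL1 gave 16 of these 36, CTNNA1 and CTNNB1 9 each and CTNND1 2. Of the 78 peaks, 20 were at least 1000 bp wide (25.6%, Wilson interval 17.3 to 36.3%, against 5.77% of all peaks), 16 at CTNNAL1 and 4 at CTNNA1, whereas the widest CTNNB1 peak was 704 bp. The medians of CTNNAL1 (66.3), CTNNB1 (50.5) and CTNNA1 (43.3) were above that of all peaks, and those of CTNND1 (38.6) and CTNND2 (38.4) were under it.

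**Figure D4:**
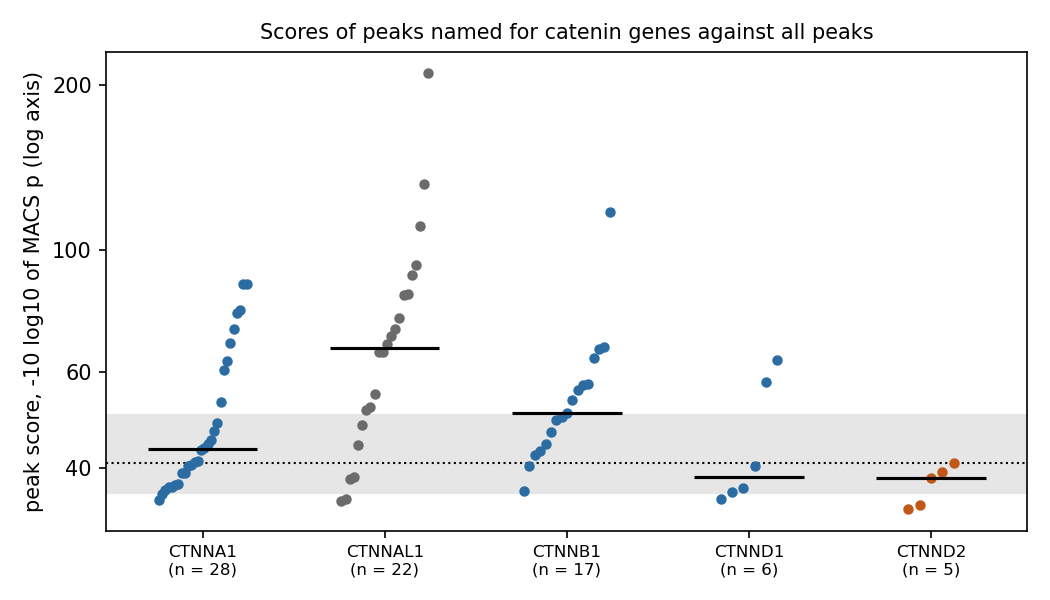
Score of each named peak on a log axis (y axis) by gene (x axis); points are peaks in order of score, black lines are medians by gene, the dotted line is the median of all peaks (40.9) and the grey band runs from the lower to the upper quartile of all peaks (36.0 to 50.0). CTNNAL1 has the highest points (up to 210.2), and every CTNND2 point is under the dotted line.

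In location the catenin peaks resembled the rest of the list. Introns held 73 of 78 (93.6%, Wilson interval 85.9 to 97.2%), against 87.6% of all peaks, exons held 3, and 1 peak each fell in a non-coding exon and at a transcript end. Promoters held 0 of 78, against 0.277% of all peaks, and 4 of 78 lay within 5 kb of a TSS (5.13%, against 8.72% of all peaks). Among intronic peaks, 27 of 73 were in intron 1 (37.0%, interval 26.8 to 48.4%), against 32.1% overall. This share differed among members: 12 of 16 at CTNNB1, 5 of 5 at CTNND1, 6 of 27 at CTNNA1, 4 of 20 at CTNNAL1 and 0 of 5 at CTNND2. On the canonical transcript, intron 1 took 24.35 of 40.94 kb at CTNNB1 and 26.92 of 57.74 kb at CTNND1. It took 28.41 of 181.6 kb at CTNNA1, 14.04 of 70.92 kb at CTNNAL1 and 171.5 of 932.6 kb at CTNND2. The part of intron length in these shares was not tested. The counts of intronic peaks include 4 CTNNAL1 peaks in an intron of TMEM245 and 1 CTNNB1 peak in an intron of ULK4. A repeat lay at the centre of 30 of 78 peaks (38.5%, interval 28.4 to 49.6%), against 42.4% of all peaks. LINE elements gave 14 of these (17.9% of the 78 peaks, against 18.0% of all peaks) and SINE elements 8 (10.3%, interval 5.29 to 19.0%, against 14.2%).

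Words bound by ERG and by its known partners were counted on both strands within 100 bp of each peak centre, and the same windows were read for the 18037 peaks on the assembled chromosomes. GGAA was found at 59 of 78 catenin peaks (75.6%, Wilson interval 65.1 to 83.8%), against 83.8% of all peaks. By gene the counts were 15 of 28 at CTNNA1 (53.6%, interval 35.8 to 70.5%), 19 of 22 at CTNNAL1, 16 of 17 at CTNNB1, 4 of 6 at CTNND1 and 5 of 5 at CTNND2. The CTNNA1 share was the smallest of the 5 in this window, but over whole peaks GGAA was in 27 of 28 CTNNA1 peaks (96.4%, against 94.9% of all peaks), at 8.79 matches per kb against 9.81, and CTNND1 then had the smallest share (5 of 6). AGGAAG, which contains GGAA and so overlaps with it, was found at 5 of 78 (6.41%, interval 2.77 to 14.1%), against 17.1% of all peaks. The ETS consensus CCGGAAGT, which also contains GGAA, was found at 0 of 78 and at 0.0333% of all peaks.

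The forkhead word TGTTTAC was found at 5 of 78 catenin peaks (6.41%), of which 4 were at CTNNA1, against 3.69% of all peaks. AGAACA, a hexamer of the androgen receptor element, was found at 9 of 78 (11.5%, interval 6.19 to 20.5%), against 17.0% of all peaks. Base composition was close in both sets, with a median GC content of 38.1% in catenin windows and 38.3% in all windows. Over whole peaks GGAA was found at 76 of 78, but catenin peaks were wider. Per kb of whole peak there were 9.17 GGAA matches in catenin peaks and 9.81 in all peaks, and 0.774 against 0.999 for AGGAAG. By share of whole peaks, AGGAAG was in 42.3% of catenin peaks against 34.3% of all peaks, AGAACA in 48.7% against 33.7%, at 0.964 against 0.923 matches per kb, and TGTTTAC in 15.4% against 8.50%, at 0.205 against 0.185 per kb. The shares of AGGAAG and AGAACA, lower near catenin peak centres, were therefore higher over whole peaks. For AGGAAG the Wilson interval over whole peaks (32.0 to 53.4%) included the share of all peaks. For AGAACA the interval near the centres included it, and that over whole peaks (37.95 to 59.61%) did not. Per kb AGGAAG stayed lower while AGAACA did not. A single CCGGAAGT was present, in the strongest CTNNAL1 peak. These matches describe the letters in the windows and do not mark sites of binding.

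**Figure D5:**
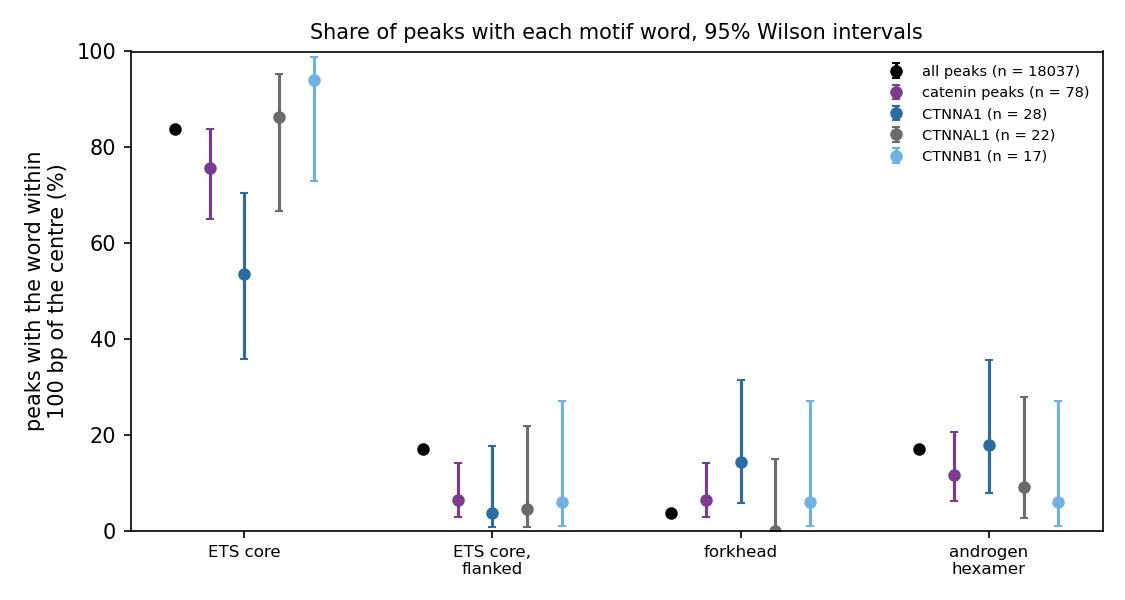
Share of peaks, in percent (y axis), with each of 4 words within 100 bp of the centre (x axis: GGAA as ETS core, AGGAAG as flanked core, TGTTTAC as forkhead, AGAACA as androgen hexamer), for all peaks, the 78 catenin peaks and the 3 genes with the most peaks; bars are 95% Wilson intervals. The CTNNA1 share of GGAA (53.6%) lies below that of all peaks (83.8%), and its interval ends at 70.5%; over whole peaks, which are not plotted, it was 96.4% against 94.9%.

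The 5 genes with named peaks were set beside the protein-coding genes of the same chromosome nearest to them in length. For CTNNA1 the nearest in length were GRIA1, DNAH5 and COMMD10, with 1, 8 and 2 named peaks against 28. For CTNNAL1 they were RIGI, CCDC180 and SLC35D2, with 1, 0 and 0 against 22. For CTNNB1 they were IQCB1, ATP6V1A and MUC4, with 3, 0 and 0 against 17. DRD2, TCP11L1 and DAGLA had 0 each, against 6 for CTNND1, and SGCD, CDH12 and CDH18 had 0 each, against 5 for CTNND2. By peak centres in the body, COMMD10 held 3 (CTNNA1 42), IQCB1 4 and ATP6V1A 1 (CTNNB1 17), and TCP11L1 1 (CTNND1 6). The remaining genes set beside the members had the same number by body as by name. The length ratio was at most 1.01 for the first 4 genes and up to 1.18 for CTNND2. Only the 5 members with a named peak were set beside such genes, and CTNNA2, CTNNA3 and JUP were not. Since these 5 were taken because they had peaks, their higher numbers are a description and show nothing of the effect of length.

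Partners of the catenins were read in the same way. Of 39 genes in 3 lists, 15 were named by a peak (38.5%, Wilson interval 24.9 to 54.1%), beside the 21.3% of all protein-coding genes, and the median length of the 39 genes was 91.3 kb against 27.5 kb. Among protein-coding genes of 50 to 100 kb, the band of that median, 35.0% were named, a share inside the interval. Of 12 genes in the list of cadherins and their links to actin, 7 were named (58.3%, interval 32.0 to 80.7%), all 7 link genes and 0 of 5 cadherin genes. The median length of the 12 genes was 136 kb, and the share stands beside 38.4% of protein-coding genes of 100 to 500 kb. LIMA1, an actin-binding protein that joins the α-catenin complex, had 11 peaks with a highest score of 86.1, 6068 bp from the TSS in intron 1. AFDN (afadin, the nectin adaptor) had 16 peaks up to 58.9, the actin cross-linker ACTN4 had 2 up to 50.1, and the junction scaffold TJP1 had 2 up to 48.0. The 5 cadherin genes without a peak were CDH1, CDH2, CDH3, CDH4 and CDH11. CDH1, which encodes E-cadherin, CDH3 and CDH11 are on chromosome 16, where the whole list had 26 peaks and named 2.71% of protein-coding genes. CDH2 is on chromosome 18 and CDH4, 688 kb long, on chromosome 20, where 25.4% and 31.5% of protein-coding genes were named. The part of peak number by chromosome in these counts was not tested.

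Of 9 genes of p120 relatives and desmosomes 1 was named (11.1%, interval 1.99 to 43.5%), at a median length of 46.9 kb, beside 13.5% of protein-coding genes under 50 kb. This was PKP4, a plakophilin, with 2 peaks up to 46.7. The other 8 genes, among them those of the desmosomal partners of plakoglobin, had no peak. Of 18 genes that control β-catenin turnover and its transcriptional output 7 were named (38.9%, Wilson interval 20.3 to 61.4%). Their median length was 63.7 kb, and the share was near the 35.0% of all protein-coding genes of 50 to 100 kb. FBXW11, a subunit of a ubiquitin ligase that recognises phosphorylated β-catenin, had 33 peaks with a highest score of 136 in intron 1, more peaks than any catenin gene by name. GSK3B, the kinase that marks β-catenin for degradation, had 11 peaks up to 74.8. BCL9, a coactivator of β-catenin, and CSNK1A1, its priming kinase, had 3 peaks each, up to 54.7 and 54.6. The 11 genes without a peak included APC and AXIN1, scaffolds of the destruction complex, and AXIN1 is also on chromosome 16.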

How the data were processed

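Peaks of 1 mERG ChIP library against 1 control library of VCaP cells were analysed as the authors deposited them, in 1 list on hg19 annotated with HOMER; Bowtie2 and Picard are also named in the submitters' processing notes, and MACS in the header of the list. The deposited score is the log10 of the p-value from MACS multiplied by −10, and is not normalized to depth, which is unknown. Gene bodies came from GENCODE release 44 on GRCh37 and background genes were RefSeq protein-coding genes, of which 19101 of 20056 (95.2%) had such a span, matched by Entrez identifier and current symbol. Members, gene lists and alternatives were chosen with earlier results of these data known, so shares are given with intervals (Wilson, or exact Poisson for densities) and no test was run. Motif windows needed a chromosome of the assembly, which 18037 of 18070 peaks had. Genes named were all members, in each partner list the 4 genes with the highest score and the number without a peak, the 3 genes nearest in length on the same chromosome, and genes naming a peak inside a member. APC, AXIN1, the cadherin genes, LRRTM1, TMEM245 and ULK4 were named after their values were seen. Alternatives were the stronger peaks, a minimum score of 50, gene body assignment, a 50 kb limit, removal of the highest scores and widest peaks, and whole peaks for motifs. Body counts and motif search were tested on simulated data. Scripts ran in Python 3.11.15 with pandas 2.3.3 and NumPy 2.4.6 for tables, SciPy 1.17.1 for intervals and Matplotlib 3.10.9 for figures.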

Additional observations from a re-analysis of the deposited data

How the results depend on the processing

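Of 38 alternative values, 24 stayed within 1.5 times the reported count or density, within the interval of the reported share, or, for the highest CTNNA1 score, at the same value. With the stronger 50% of peaks, CTNNA1 had 17 peaks, the epithelial density was 8.40 and the neural 0.0417 per 100 kb, and 9 partner genes were named. With a minimum score of 50, 36 catenin peaks remained, 9 of them at CTNNA1, the densities were 4.92 and 0, 7 partner genes were named, and the GGAA share was 91.7%. Fewer peaks enter these lists by construction. The background gene shares, the densities by length and the GGAA share of all peaks were not computed for them. Values from these lists therefore cannot be read against the shares of the full list. Assigned by gene body, the highest CTNNA1 score was 109.8. With named peaks the neural density was 0.209, and with the canonical transcript, an alternative chosen after seeing the data, the epithelial density was 20.2. Over whole peaks the GGAA share was 97.4%. The epithelial density was above the neural in each of these settings. Depth, the kind of control and the lack of a replicate limit all values, and a score cannot be compared with other libraries.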
